A study of Bos taurus with 15 samples.

Results

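TNIK, PYGO2 and TLE1 are 3 of the 31999 rows of the deposited count table, and their products act on transcription by TCF factors and beta-catenin, the nuclear end of canonical WNT signalling. The 3 rows were chosen by name among the few that carried a gene symbol, with earlier results of these counts in view. TNIK in particular was selected on its difference between androgenetic and ICSI morulae, so the levels and fold changes of all 3 genes are given as a description, with no p. The libraries were RNA-seq of bovine embryos at the morula stage, 5 in each of 3 groups. Androgenetic haploid embryos (titled TII) carried a paternal genome only, parthenogenetic haploid embryos (titled CHX) a maternal genome only, and diploid embryos (titled ICSI) were made by intracytoplasmic sperm injection. The way of making the embryos went with the group, so it cannot be told apart from parental origin in any comparison, nor from ploidy in the comparisons against ICSI. Both the androgenetic and the parthenogenetic group were haploid. The labels give neither breed, sire, day nor batch, nor whether a library was 1 embryo or a pool. Replicates were numbered 1, 2, 4, 5 and 6 in the androgenetic group, 1, 2, 3, 5 and 6 in the parthenogenetic group and 1 to 5 in the ICSI group.

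In canonical WNT signalling a secreted WNT ligand binds Frizzled and LRP receptors at the cell surface, which keeps beta-catenin from being degraded. Beta-catenin then enters the nucleus and binds TCF or LEF factors on DNA, and target genes are switched on. Without it the same TCF sites are held silent by corepressors of the TLE (Groucho) family, of which TLE1 is a member. PYGO2 is a Pygopus protein, a PHD-finger coactivator that joins the beta-catenin complex through BCL9. TNIK is a Ste20-like kinase that in human colorectal cancer cells and mouse intestine binds and phosphorylates TCF factors. The title of the series puts an imbalance of WNT signals at the centre of haploid androgenetic development. The pathway also bears on the first lineage choices of the early embryo.

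Androgenetic libraries held 21617805 to 28462700 counts each, parthenogenetic libraries 25110511 to 28981601 and ICSI libraries 19968077 to 26948011. The number of rows with at least 1 count was 13564 to 18633 per androgenetic library, 16154 to 18899 per parthenogenetic library and 15286 to 19950 per ICSI library. The fewest rows were detected in androgenetic replicate 6, parthenogenetic replicate 6 and ICSI replicate 5. Of 18 early embryo markers drawn up for the check of the stage, 4 had a row under a symbol (SOX2, ARGFX, DUXA and DPRX), and their summed level was 733 to 10331 CPM in the androgenetic group, 413 to 1256 CPM in the parthenogenetic group and 345 to 1632 CPM with ICSI. The value of 10331 was in androgenetic replicate 6, and the other 4 androgenetic libraries had 733 to 2214 CPM. In replicate 6 DUXA stood at 6414 CPM and ARGFX at 3917 CPM, beside 3 counts of SOX2 and 0 of DPRX. The sums rested on ARGFX and DUXA in every library, since SOX2 never passed 8.26 CPM and DPRX never passed 1.22 CPM. DPRX had 0 counts in 3 androgenetic and 4 ICSI libraries, and at least 1 count in each parthenogenetic library. The other embryo markers had no row under a symbol and were not assessed. None of 25 markers of cumulus cells, oocytes or sperm had a row under a symbol, so RNA from such cells was not assessed here. In whole embryos, fewer cells that make a transcript and less of it per cell cannot be told apart.

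The TNIK row was the only one of the 3 with high counts, and it was high in every androgenetic library. TMM-scaled CPM, in which counts are divided by the library total times a factor for its composition, were 2020.0, 4558, 1044, 3177 and 1038 in androgenetic replicates 1, 2, 4, 5 and 6. They were 471, 902, 350.5, 427 and 1933 in parthenogenetic replicates 1, 2, 3, 5 and 6. They were 258, 429.8, 245, 379 and 853 in ICSI replicates 1 to 5. On this scale all 5 androgenetic libraries stood above all 5 ICSI libraries, the lowest at 1038 and the highest ICSI library at 853. Among 16375 tested rows, 3.05% were apart from ICSI in this direction.

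The group means of TNIK were ordered androgenetic, parthenogenetic, ICSI, at 2368 ± 1508, 817 ± 659.7 and 433 ± 248 TMM-scaled CPM (SD, n = 5 each). Its log2 fold change was 2.45 ± 0.57 (SE) for androgenetic against ICSI morulae. It was 0.92 ± 0.54 for parthenogenetic against ICSI and 1.54 ± 0.55 for androgenetic against parthenogenetic morulae. The neighbours in this order overlapped: 3 of 5 androgenetic libraries were above all parthenogenetic ones, and 2 of 5 parthenogenetic libraries were above all ICSI ones. Parthenogenetic replicate 6 lay within the androgenetic range, and without it the parthenogenetic mean was 538 ± 248 (n = 4). Counting error was small beside this spread, with the 95% Poisson interval of the lowest ICSI library at 240 to 250.3 CPM.

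**Figure D1:**
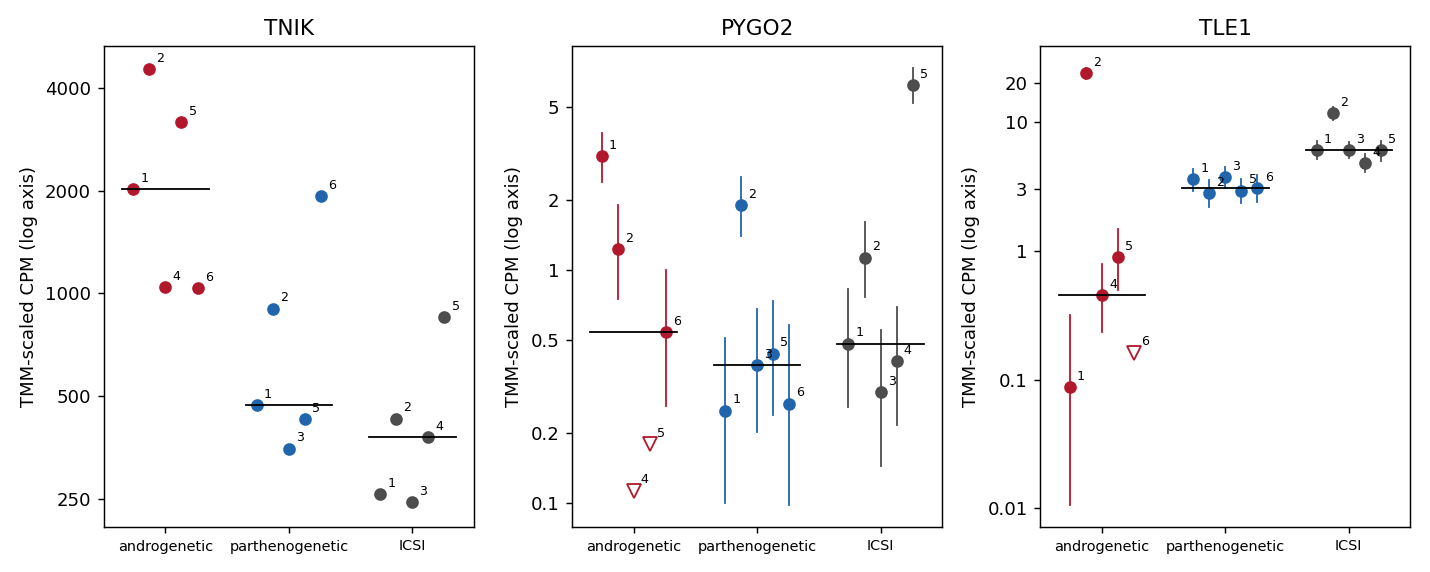
TMM-scaled CPM on a log axis of TNIK, PYGO2 and TLE1 in each library, numbered by replicate, with vertical lines for the 95% Poisson interval of the count and horizontal lines for group medians; open triangles mark libraries with 0 counts, drawn at the level of 3 counts. TNIK is between 1038 and 4558 in androgenetic and between 245 and 853 in ICSI libraries, while TLE1 is under 1 CPM in 4 androgenetic libraries and at 23.9 in androgenetic replicate 2.

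Whether the TNIK groups overlapped depended on the scaling. In CPM of the library total, with no scaling factor, the androgenetic libraries had 1896, 3328, 1068, 2478 and 674, and the ICSI libraries 297, 572, 337, 452 and 801. Androgenetic replicate 6, at 674, was then below ICSI replicate 5, at 801, so that 4 of 5 androgenetic libraries were above all ICSI libraries. The scaling factor of androgenetic replicate 6 was 0.649, the lowest of all 15, in the library with fewest rows detected. DESeq2 and upper-quartile scaling factors kept the groups apart, with lowest androgenetic values of 1065 and 1001 CPM against highest ICSI values of 877 and 810.3. Without scaling factors the log2 fold change against ICSI was 1.94 ± 0.47 (SE), and the median of all rows was then -0.54.

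**Figure D2:**
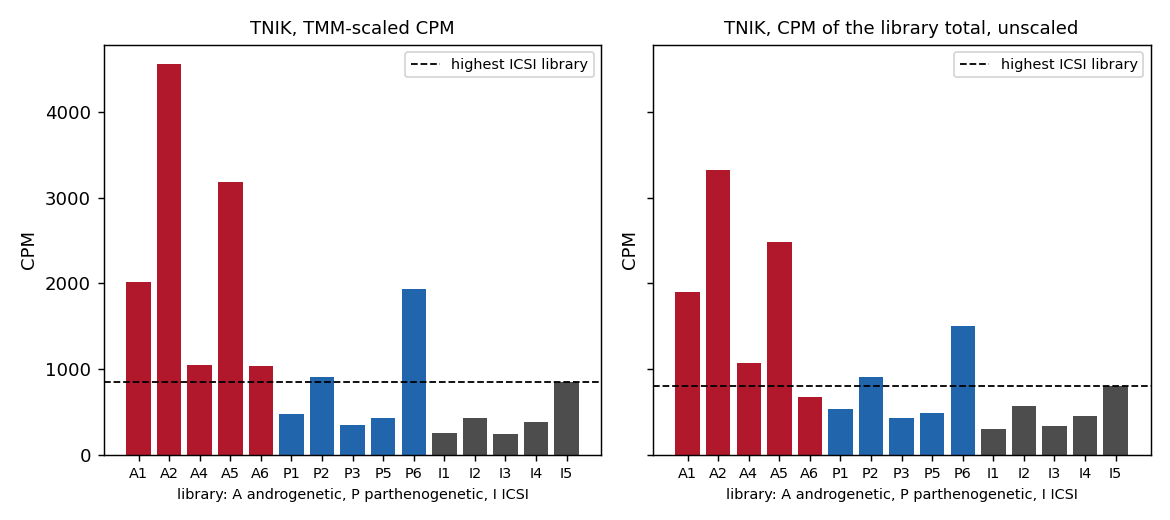
TNIK in each library as TMM-scaled CPM (left) and as CPM of the library total without scaling (right), with a dashed line at the highest ICSI library. Androgenetic replicate 6 is above the line at 1038 on the left and below it at 674 on the right.

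TNIK was also set beside the number of rows detected, with no order common to all 3 groups. Parthenogenetic replicate 6 and ICSI replicate 5 had the fewest rows detected in their groups, 16154 and 15286, and the highest TNIK. Androgenetic replicate 6 had the fewest of all, 13564, and the lowest TNIK of its group. Among the other 4 androgenetic libraries, replicate 2 had the fewest rows (16665) and the highest TNIK, and replicate 4 the most (18633) and the lowest. The other 4 parthenogenetic libraries had the same order at their ends. Replicate 2 had the fewest rows (18111) and 902 CPM, the highest, and replicate 3 the most (18899) and 350.5 CPM, the lowest. Among the other 4 ICSI libraries the values did not run this way: replicate 1 had the fewest rows (19196) and 258 CPM, while replicates 2 and 4 had the most (19887 and 19950) and the higher levels, 429.8 and 379 CPM. Without the library with fewest rows detected in each group the log2 fold change was 3.17 ± 0.48 (SE) for androgenetic against ICSI morulae and 2.47 ± 0.47 for androgenetic against parthenogenetic morulae. These larger values follow from the libraries left out, which were the lowest in TNIK of the androgenetic group and the highest of the other groups. The part of rows detected in the TNIK difference was not tested.

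**Figure D3:**
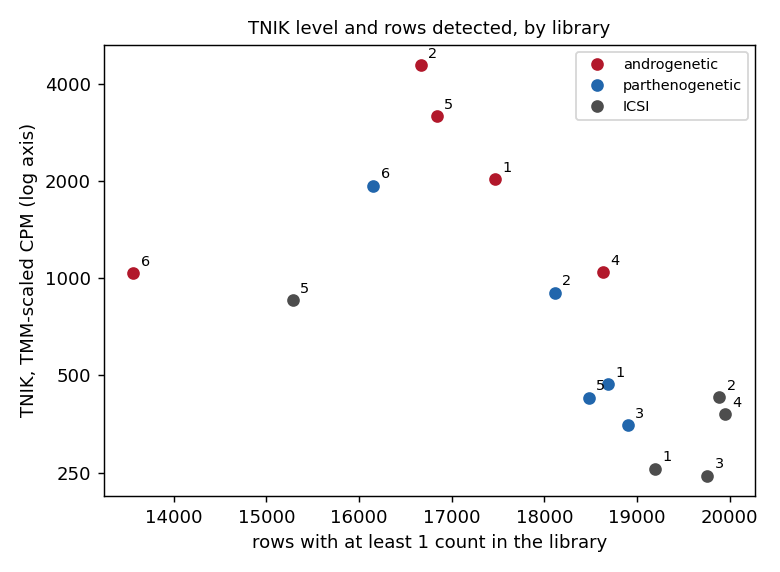
TNIK level on a log axis against the number of rows with at least 1 count in each library, numbered by replicate. Androgenetic replicates 2, 5, 1 and 4 descend in that order from 4558 at 16665 rows to 1044 at 18633 rows, and androgenetic replicate 6 stands at 1038 with 13564 rows.

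The TNIK row may not measure TNIK alone. The 5 rows whose log2 CPM was most like it over the 15 libraries all carried Ensembl identifiers, with Pearson r from 0.988 to 0.999. The closest, ENSBTAG00000050435, held 3.71 to 4.35 times the TNIK count in every library, a ratio with a coefficient of variation of 4.79%, while TNIK itself ran from 0.0297% to 0.333% of all counts. The second, ENSBTAG00000049814, held 1.56 to 2.22 times the TNIK count. Their log2 fold changes for androgenetic against ICSI morulae were 2.41 ± 0.57 and 2.57 ± 0.58 (SE), beside 2.45 for TNIK. The third, ENSBTAG00000051079, had nearly the same counts as the second in every library. They had 147982 and 147983 in androgenetic replicate 2, and 27028 and 27189 in parthenogenetic replicate 5. These 2 rows may thus not be separate measures. Ratios of the last 2 rows varied more. The fourth, ENSBTAG00000038488, held 9.81 to 15.3 times the TNIK count, with a coefficient of variation of 11.8%. It was the more abundant, with 727406 counts in androgenetic replicate 2 beside 74132 for TNIK. The fifth, ENSBTAG00000048369, held 0.0718 to 0.134 times the TNIK count, with a coefficient of variation of 15.5%. The libraries share depth and composition across these rows, and r is a description. In RefSeq's annotation of the assembly ARS-UCD2.0, the gene TMSB4, named for the actin-binding peptide thymosin beta 4, overlaps the span of TNIK. TMSB4 had no row under its symbol, and the sources used here do not pair Ensembl identifiers with names. Whether reads of TMSB4 or of a related copy were counted in the TNIK row was not tested.

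**Figure D4:**
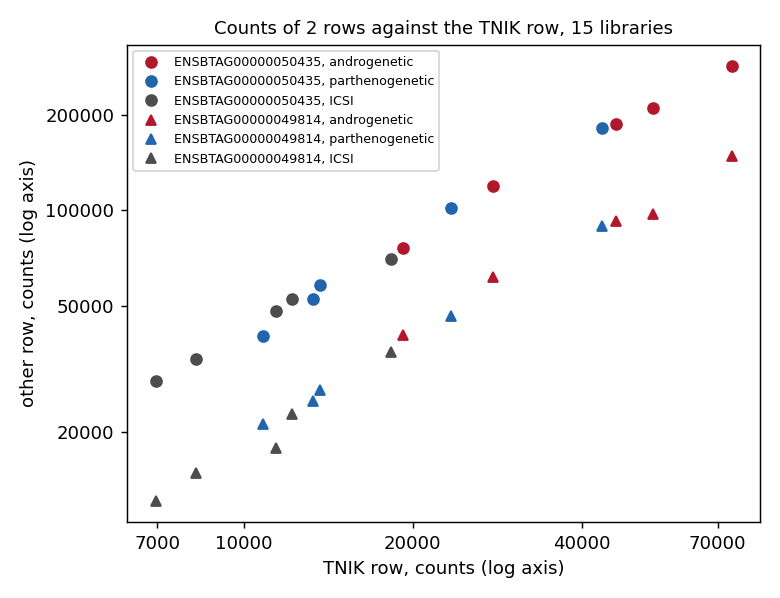
Counts of ENSBTAG00000050435 (circles) and ENSBTAG00000049814 (triangles) against counts of the TNIK row in each of the 15 libraries, both on log axes, coloured by group. The circles keep close to a line of constant ratio, at 3.71 to 4.35 times the TNIK count.

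TLE1, the corepressor, was near 0 in 4 of 5 androgenetic libraries. Raw counts were 2, 389, 12, 15 and 0 in androgenetic replicates 1, 2, 4, 5 and 6. They were 101, 73, 115, 94 and 69 in parthenogenetic replicates 1, 2, 3, 5 and 6. They were 164, 310, 204, 154 and 129 in ICSI replicates 1 to 5. Thus 4 androgenetic libraries stood below every parthenogenetic and every ICSI library and 1 stood above them all.

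In TMM-scaled CPM, TLE1 was 0.0877, 23.9, 0.451, 0.890 and 0 in those androgenetic libraries. The 0 in replicate 6 allows up to 0.162 CPM, the level of 3 counts. The parthenogenetic libraries lay between 2.81 and 3.73 and the ICSI libraries between 4.80 and 11.7. The androgenetic mean of 5.07 ± 10.5 (SD, n = 5) rested on replicate 2, and without it was 0.357 ± 0.405 (n = 4). The parthenogenetic mean was 3.23 ± 0.407 and the ICSI mean 6.93 ± 2.70 (n = 5 each).

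The fold changes of TLE1 in androgenetic morulae turned on that library. The log2 fold change was -0.45 ± 1.20 (SE) against ICSI and 0.65 ± 1.21 against parthenogenetic morulae. Without androgenetic replicate 2 these were -4.19 and -3.08. At least 4 of the 5 androgenetic libraries were below all ICSI libraries in 2133 of the 16375 tested rows, or 13.0%. In 384 rows, TLE1 among them, 4 were below and the other library above, and that library was replicate 2 in 41. Replicate 2 was also the androgenetic library with the highest TNIK.

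TLE1 levels of parthenogenetic and ICSI morulae did not overlap, with every parthenogenetic library below every ICSI library, on the TMM-scaled, DESeq2-scaled, upper-quartile and unscaled levels alike. Without scaling, the parthenogenetic libraries had 2.38 to 4.51 CPM and the ICSI libraries 5.66 to 15.5 CPM. The log2 fold change was -1.10 ± 1.21 (SE), or 2.15-fold lower, in the fit of all 15 libraries, which takes 1 estimate of spread over the 3 groups. In a fit of the parthenogenetic and ICSI libraries alone it was -1.10 ± 0.47. TLE1 was called in neither fit. Among tested rows, 0.501% were lower in parthenogenetic than in ICSI morulae with no overlap. The 5 parthenogenetic libraries were alike, the highest being 1.32 times the lowest. A RefSeq gene that overlaps TLE1, LOC107132697, had 0 to 6 counts in any library.

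**Figure D5:**
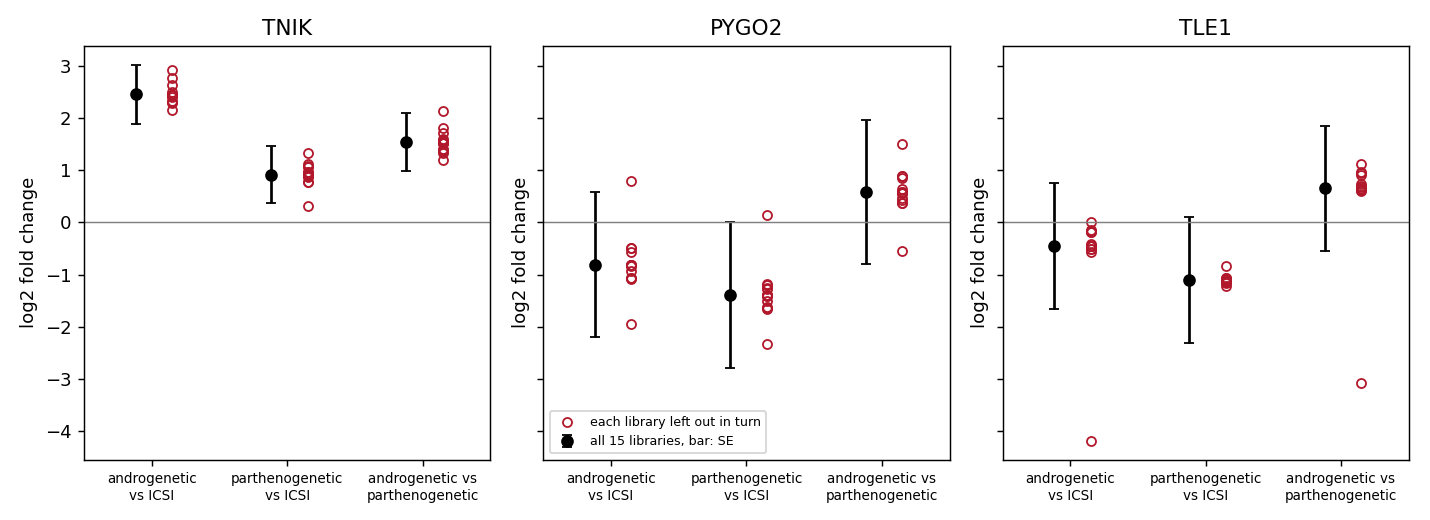
Log2 fold changes of the 3 genes in the 3 comparisons from all 15 libraries (black, bars show the SE) and with each library left out in turn (red circles). TNIK stays above 0 in each comparison, and the single red circles at -4.19 and -3.08 for TLE1 are the fits without androgenetic replicate 2.

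PYGO2, the Pygopus coactivator, was scarcely detected. Raw counts were 70, 20, 0, 0 and 10 in androgenetic replicates 1, 2, 4, 5 and 6, and 7, 49, 12, 14 and 6 in parthenogenetic replicates 1, 2, 3, 5 and 6. ICSI replicates 1 to 5 had 13, 30, 10, 13 and 133. The 3 groups overlapped widely, and the highest value of all was in ICSI replicate 5. The median TMM-scaled CPM was 0.541 for androgenetic, 0.389 for parthenogenetic and 0.482 for ICSI libraries. The 0 counts in androgenetic replicates 4 and 5 allow up to 0.113 and 0.178 CPM.

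The means of PYGO2 in TMM-scaled CPM were 0.968 ± 1.28 for androgenetic, 0.646 ± 0.699 for parthenogenetic and 1.71 ± 2.54 for ICSI libraries (SD, n = 5 each). The log2 fold changes were -0.81 ± 1.38 (SE) for androgenetic against ICSI, -1.39 ± 1.40 for parthenogenetic against ICSI and 0.58 ± 1.38 for androgenetic against parthenogenetic morulae. The direction of each rested on 1 library. Without ICSI replicate 5 the first 2 were 0.79 and 0.14, and without androgenetic replicate 1 the third was -0.55. Libraries of 1 group differed by more than counting error, with a 95% Poisson interval of 5.20 to 7.36 CPM in ICSI replicate 5 and 0.143 to 0.549 CPM in ICSI replicate 3. The groups overlapped in all 3 comparisons, and PYGO2 was called in none.

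The 3 genes did not follow each other across the 15 libraries: Pearson r of log2 CPM was 0.022 for TNIK and PYGO2, -0.26 for TNIK and TLE1, and 0.17 for PYGO2 and TLE1. These values are descriptions over libraries that share groups. The 5 rows most like PYGO2 had r from 0.773 to 0.817 and the 5 most like TLE1 had 0.859 to 0.897, and none of them carried a gene symbol.

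With edgeR's quasi-likelihood test, adjusted over all 16375 rows and called under 0.05, 1 of the 3 genes (TNIK) was called higher in androgenetic than in ICSI morulae. This call is part of how TNIK came to be chosen. In that comparison 2.82% of all tested rows were called, and 1.76% of all tested rows were called as higher. Neither PYGO2 nor TLE1 was called. None of the 3 genes was called in parthenogenetic against ICSI morulae (0.0733% of all rows) or in androgenetic against parthenogenetic morulae (1.75%). The TNIK call was lost without any 1 of androgenetic replicates 1, 2 and 5 or ICSI replicates 1 to 4, with log2 fold changes from 2.16 to 2.92 over the 15 fits that each left out 1 library. The 7 fits in which TNIK was not called had 0 to 20 called rows in all, where 461 were called with all 15 libraries. Both comparisons against ICSI share the same ICSI libraries. In androgenetic against parthenogenetic morulae TNIK was called by DESeq2, without parthenogenetic replicate 6, and without the 3 libraries with fewest rows detected. These settings also called more rows in all, 1678, 903 and 1874 in that order, where 287 were called in the fit of all 15 libraries.

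Little else of the WNT pathway could be read under a gene name. Of 153 genes in a list of ligands, receptors, inhibitors, cytoplasmic proteins, nuclear effectors and targets, 8 had a row that could be named, and 6 of these passed the expression filter. Beside TNIK, PYGO2 and TLE1 they were TLE7 and AES among nuclear effectors, FZD9, DACT2 and CYR61. The ligands, the secreted inhibitors, beta-catenin and the TCF factors were not analysed here, since none had a named row.

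Of the 5 rows other than the 3 genes, 3 were tested (TLE7, DACT2 and CYR61), and edgeR called 0 of them in the 3 comparisons, with 0 at an unadjusted p under 0.05. DESeq2 called 0 as well, also with 0 under an unadjusted p of 0.05, and gave no adjusted p for 1 of them in parthenogenetic against ICSI morulae. Log2 fold changes of all 3 were negative for androgenetic against ICSI morulae. TLE7 had -1.61 ± 1.22 (SE), CYR61 -0.72 ± 0.96 and DACT2 -0.19 ± 1.45. Their median was -0.72 against -0.01 over all rows, with edgeR adjusted p from 0.501 to 0.960. The 3 are a TLE family gene, a target and a Dishevelled-binding antagonist, so a shared sign is not a measure of the pathway. In parthenogenetic against ICSI morulae the median was 0.01 against 0.02 over all rows, with an adjusted p of 1.0 for each. In androgenetic against parthenogenetic morulae it was -0.51 against -0.0023, with adjusted p from 0.518 to 0.891.

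TLE7 (LOC505120), a further gene of the TLE family, was high in the same androgenetic library as TLE1. It had 1, 258, 95, 6 and 0 counts in androgenetic replicates 1, 2, 4, 5 and 6, and 39, 179, 410, 407 and 601 in parthenogenetic replicates 1, 2, 3, 5 and 6. ICSI replicates 1 to 5 had 99, 661, 596, 148 and 203. In TMM-scaled CPM 4 of 5 androgenetic libraries were below all ICSI libraries, and replicate 2 was within their range. Androgenetic replicate 4 was barely below, at 3.57 CPM (95% Poisson interval 2.89 to 4.36) beside 3.67 (2.98 to 4.47) in ICSI replicate 1. At least 4 androgenetic libraries were below all ICSI libraries in 13.0% of all tested rows. The log2 fold change of TLE7 was -1.61 ± 1.22 (SE) for androgenetic against ICSI and -1.62 ± 1.22 for androgenetic against parthenogenetic morulae. AES (TLE5), a short TLE family protein that lacks the WD repeats, failed the filter, with 0 counts in all 5 androgenetic libraries, 0 to 24 per parthenogenetic library and 0 to 3 per ICSI library.

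CYR61 (CCN1), a secreted matrix protein and WNT target in several cell types, averaged 3.13 ± 2.21 TMM-scaled CPM over the androgenetic libraries, 4.20 ± 2.17 over the parthenogenetic and 5.17 ± 3.30 over the ICSI libraries (SD, n = 5 each). It was at 0 counts in androgenetic replicate 6. DACT2, a Dishevelled-binding antagonist, had 0 to 31 counts per androgenetic library, 0 to 49 per parthenogenetic library and 0 to 34 per ICSI library. FZD9, a Frizzled receptor, failed the filter, with at most 5, 3 and 10 counts in a library of the 3 groups in that order. Of 19 kinases of the Ste20-like families related to TNIK, only STK39 had a named row. STK39 averaged 1.76 ± 2.08 TMM-scaled CPM over the androgenetic libraries, 0.558 ± 0.585 over the parthenogenetic and 1.35 ± 0.839 over the ICSI libraries (SD, n = 5 each). Its edgeR adjusted p was 0.913 for androgenetic against ICSI, 1.0 for parthenogenetic against ICSI and 0.599 for androgenetic against parthenogenetic morulae.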

How the data were processed

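A SMART-Seq HT kit made cDNA from poly(A) RNA and a Nextera XT kit made the libraries, per the labels' protocols. Reads were trimmed, aligned and counted with Trim Galore, cutadapt, STAR and featureCounts, per the submitters' processing notes. The build, annotation and strand setting behind the counts are not given in the sources used here, so overlapping, antisense and near-identical genes cannot be told apart. The deposited table holds raw counts per row and library, which the authors had not normalized.

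Of 31999 rows, 27607 carried an Ensembl identifier with no name, 3614 a LOC number and 778 a symbol. RefSeq's ARS-UCD2.0 table matched 2885 of the rows without an Ensembl identifier and served for names and neighbours only. No other row had the counts of TNIK, PYGO2 or TLE1 within 2% or 3 counts in every library. Counts were fitted with edgeR 4.0.16 in R 4.3.3 (filterByExpr, TMM factors, a quasi-likelihood fit with group as its only term over 15 libraries, Benjamini-Hochberg over the 16375 rows kept, called at an adjusted p under 0.05). DESeq2 1.42.0 was an alternative. Standard errors were taken as the log2 fold change divided by the square root of F, without sign. Intervals and floors cover counting error only. Likeness used log2 CPM with a prior count of 2, among rows with a mean of at least 5 CPM.

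The genes and lists were chosen with earlier results of these data known. The rule for named genes took the 3 genes, called rows of the lists and the 2 most abundant rows of each role. No label says that replicates were separate embryos, pools or cultures, and p-values then reflect only library-to-library spread, which may be technical.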

Additional observations from a re-analysis of the deposited data

Results flagged for a closer look

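Single libraries far from the other 4 of their group were looked for in 21 groups of TMM-scaled CPM (TNIK, PYGO2, TLE1, the other tested WNT rows and STK39, in 3 groups each), by a gap to the next library of over 0.71 of the group's range. Chance flags about 1 in 20 groups of normally distributed values, and the rate for CPM without a log scale was not tested. There were 6 found, each the highest library of its group. TLE1 in androgenetic replicate 2 stood at 23.9 CPM, where the next library had 0.890. TLE7 (LOC505120) in the same library stood at 15.9 CPM, with the next at 3.57. TLE1 in ICSI replicate 2 was at 11.7 CPM, with the next at 6.09. PYGO2 was at 6.21 CPM in ICSI replicate 5 and 1.89 CPM in parthenogenetic replicate 2, where the next libraries had 1.13 and 0.437. DACT2 in parthenogenetic replicate 6 was at 2.18 CPM, with the next at 0.593. No TNIK library was found in this way.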

How the results depend on the processing

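The log2 fold change of TNIK kept its sign under all 23 alternatives in each comparison. Leaving out 1 library at a time gave 2.16 to 2.92 for androgenetic against ICSI, 0.31 (without parthenogenetic replicate 6) to 1.33 for parthenogenetic against ICSI and 1.20 to 2.13 for androgenetic against parthenogenetic morulae. In that order the ranges were -1.95 to 0.79, -2.33 to 0.14 and -0.55 to 1.51 for PYGO2, and -4.19 to 0.014, -1.21 to -0.83 and -3.08 to 1.12 for TLE1. Without the 3 libraries with fewest rows detected, PYGO2 had 1.0 for androgenetic against ICSI and 0.34 for parthenogenetic against ICSI morulae, where the fit of all 15 libraries gave -0.81 and -1.39. No scaling factor and upper-quartile factors were added after the data had been seen.

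No pairing by replicate number was seen at the cutoff used: of 12 same-numbered pairs, 0 had correlated deviations over 0.1 (-0.05 to 0.09). In 3 of the 12, the same-numbered library was the best match. Weaker sharing between same-numbered libraries was not tested. With the replicate block TLE1 had -2.80, -0.58 and -2.22 in the same order, the WNT list had 0 called rows for androgenetic against ICSI morulae, and the rows called among all were 0, 3 and 88.

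The number of WNT list rows called, which was TNIK where it was 1, ran from 0 to 1 over fits without 1 library for androgenetic against ICSI and for androgenetic against parthenogenetic morulae, and was 1 for the second by DESeq2 and without the 3 libraries with fewest rows detected. Among all rows the fits without 1 library called 0 (without androgenetic replicate 1 or 2, or ICSI replicate 1, 3 or 4) to 1077 (without androgenetic replicate 4) for the first comparison, 3 (without parthenogenetic replicate 1, 2 or 6) to 14 for the second and 14 (without parthenogenetic replicate 1) to 903 (without parthenogenetic replicate 6) for the third, against 461, 12 and 287 with all 15. DESeq2 called 1987, 39 and 1678 rows, and edgeR without the 3 libraries with fewest rows detected called 1630, 6 and 1874. A fit of the 2 haploid groups alone called 27. DESeq2 gave no adjusted p for TLE1. The cause of these shifts was not tested. PYGO2 had 0 to 133 counts a library, and what depth limits in it and in TLE1 was not tested.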

Other observations

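Among rows that carry a gene symbol, those most like TNIK over the 15 libraries were OST4, a small oligosaccharyltransferase subunit, C7H19orf70 and NWD2, with Pearson r of 0.938, 0.907 and 0.900, at ranks 39, 112 and 140 of 8970 rows. Those most like TLE1 were FAXDC2, HARS, the histidyl-tRNA synthetase, and ARL15, a small GTPase, with r of 0.823, 0.799 and 0.756. These 6 were chosen after their values were seen, and r is a description over libraries of 3 groups.

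CXXC4, WISP2 and WISP3 were added after the row names had been seen. CXXC4, an inhibitor that binds Dishevelled, and WISP2, a CCN family gene, failed the expression filter. WISP3, a further CCN family gene, averaged 0.699 ± 0.957 TMM-scaled CPM over the androgenetic libraries, 1.52 ± 0.893 over the parthenogenetic and 0.845 ± 0.356 over the ICSI libraries (SD, n = 5 each), and edgeR called it in none of the 3 comparisons (adjusted p of 0.911 for androgenetic against ICSI, 1.0 for parthenogenetic against ICSI and 0.619 for androgenetic against parthenogenetic morulae).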
